A study of Drosophila melanogaster with 4 samples.

Results

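The genes described here lie on 3L and 3R, the arms of chromosome 3, and carried only a CG number in the deposited annotation. A CG number is the label that the Drosophila genome project gave to a predicted gene, and it is kept until the gene receives a name. Of 3558 such genes in the deposited table, 1371 (38.5%) had a mean of at least 10 CPM (counts scaled to a fixed total per library) over the 4 groups, 624 of them on 3L and 747 on 3R, and these 1371 genes were kept. They are part of 14163 gene entries in all, 6308 of which reach the same mean. Just inside the limit stood CG42775 and CG1647, with means of 10.01 and 10.02 CPM, and just outside it CG1134 and CG13698, with 9.99 and 9.97 CPM. The label needs a correction for the present: 837 of the 1371 are still known by their CG number, while 508 have since been named, and 9 could not be matched to the RefSeq gene table of fly genome Release 6. Of the rest, 11 now stand under another CG number, 5 are exons of pre-mod(mdg4) units, and 1, CG32368, is a long non-coding RNA. In all, 1356 are listed as protein coding.

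Larvae of the third instar of Drosophila melanogaster were compared, trisomy 2L females with normal females and trisomy 2L males with normal males. In the trisomic larvae 2L, the left arm of chromosome 2, is present in 3 copies in place of 2. The series text calls the normal stock Cantons, and neither the construction of the trisomic larvae nor their other markers are given in the sources used here, so karyotype and stock cannot be told apart. All stocks were kept at 25 degrees. The labels name 4 biological repeats for each of the 4 groups, but the values are the authors' means, 1 per gene and group. The spread between repeats and the depth of the libraries are therefore unknown, and every difference below is a size with no error, test or p-value.

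Genes on 3L and 3R keep their normal copy number in these larvae, so the extra arm can reach them only in trans. In flies and in plants, one described form of such a response is the inverse effect, in which genes elsewhere fall in proportion to the added dosage. Whole larvae hold many tissues, among them salivary glands filled with glue protein, a large fat body, a midgut, muscle and, in males, a testis with developing spermatocytes.

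Changes are given as log2 of (CPM + 1) in trisomic over normal larvae of the same sex, where the added 1 understates the change of low genes. As CPM are shares of a total, a larger share of 2L lowers every other share. The 2L transcript models held 26.4% of the CPM in trisomic females and 19.9% in normal females, which alone shifts the other genes by -0.12, and 26.9% in trisomic males against 20.04% in normal males, a shift of -0.13. These totals count each transcript model of a gene.

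Most CG genes of 3L and 3R were lower in the trisomic larvae of both sexes. Their median change was -0.24 in females (0.84-fold) and -0.40 in males (0.76-fold), beside shifts of -0.12 and -0.13 from the 2L share. After rescaling to totals of 1 value per gene these medians were -0.17 and -0.32. Over all 6308 genes the medians were -0.06 and -0.18. The quartiles were -0.59 and 0.12 in females and -0.84 and 0.15 in males. Summed over the 1371 genes, CPM came to 45277 in trisomic females against 55632 in normal females, and to 51668 in trisomic males against 62313 in normal males. In females 881 genes were below 0, which is 64.3% of them where all genes gave 53.6%, and in males 944 were, 68.9% against 59.4%.

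A change of at least 1.5-fold was counted by size. In females 349 of the 1371 genes (25.5%) were lower by that much, where the share over all genes was 18.3%, and 125 (9.12%) were higher, against 15.3%. In males 561 (40.9%) were lower, against 29.5%, and 164 (12.0%) were higher, against 17.0%. Thus the lower class was fuller and the higher class emptier than over all genes, which include those of 2L. CG genes of 2R were close to these shares, with 27.9% lower in females and 40.6% in males, and 8.85% and 13.2% higher. Named genes of 3L and 3R had 19.8% and 31.8% lower, and 12.7% and 13.6% higher. In both sexes together, 293 of the 1371 genes (21.4%, against 15.2% of all genes) were lower and 98 (7.15%, against 12.4%) were higher. The split depends on the scale. After centring on the median of the 4069 genes of 2R, 3L and 3R, which was -0.20 in females and -0.31 in males, 157 genes (11.5%, against 7.51%) were lower and 181 (13.2%, against 22.3%) higher in females. In males 310 (22.6%, against 14.5%) were lower and 276 (20.1%, against 27.6%) higher. In both sexes together 7.73% were then lower, against 4.85% of all genes, and 11.5% higher, against 19.5%.

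The copy number ratio of the trisomic arm is 1.5, and its inverse is 0.67. When each gene was given to the nearest of 5 sizes on the log2 scale, namely 0.67-fold, 1-fold, 1.5-fold and the squares of the outer ones, 544 genes (39.7%, against 31.6% of all genes) lay nearest to 0.67-fold in females, the largest class, and 502 (36.6%, against 37.0%) nearest to 1-fold. At 0.44-fold, the square of 0.67-fold, or below were 107 (7.80%, against 4.77%). In males 431 (31.4%, against 29.0%) were nearest to 0.67-fold, 355 (25.9%, against 29.0%) to 1-fold, and 321 (23.4%, against 15.2%) to 0.44-fold or below. The class of 1.5-fold held 159 genes (11.6%, against 19.4%) in females and 163 (11.9%, against 16.4%) in males. At the square of 1.5-fold or above stood 59 genes in females (4.30%, against 7.23%) and 101 in males (7.37%, against 10.4%). In bins of 0.1, the fullest bin ran from -0.6 to -0.5 in females, with 125 genes, and from -0.7 to -0.6 in males, with 90 genes, when genes with under 2 CPM in both female groups were set aside. The place of the peak depends on the scale: after centring the fullest bin ran from -0.4 to -0.3 in both sexes, and the genes nearest to 0.67-fold were 29.7% in females (against 22.3% of all genes) and 26.6% in males (against 21.2%). On the deposited scale the share nearest to 0.67-fold was much the same in other unlinked sets. It was 39.9% in females and 32.6% in males for CG genes of 2R, and 37.0% and 32.8% for named genes of 3L and 3R. It is thus not particular to the CG genes of 3L and 3R. On that scale the named genes of 3L and 3R had their fullest bin at the same 2 places. For CG genes of 2L it ran from 0 to 0.1 in females and from -0.1 to 0 in males.

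**Figure D1:**
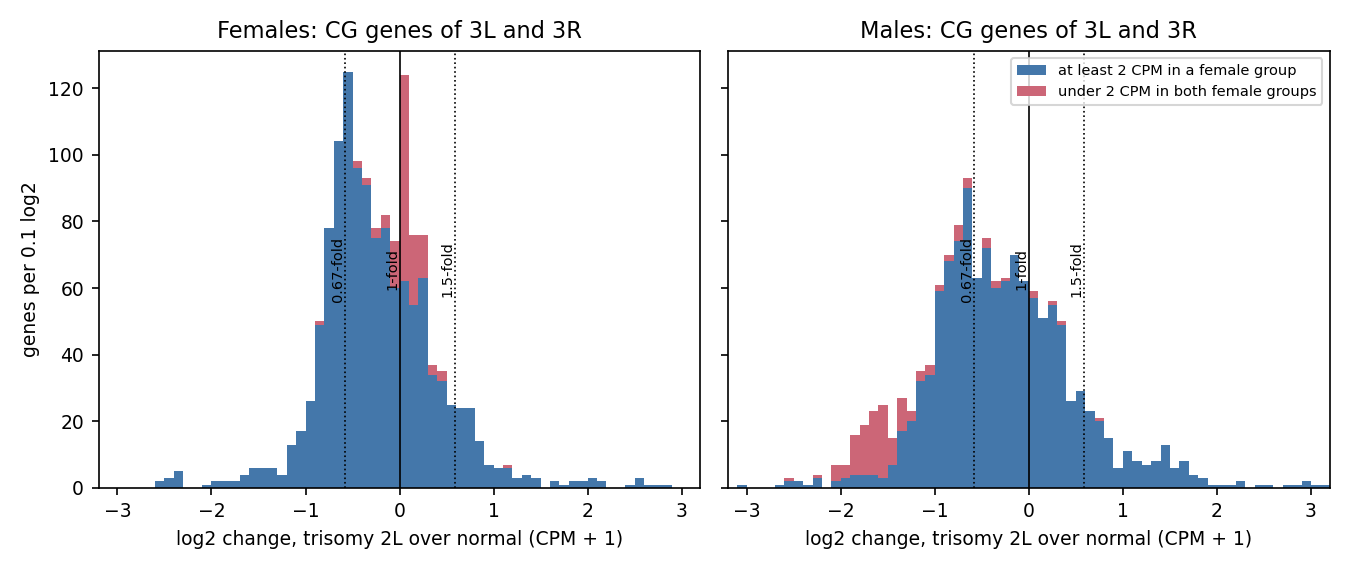
Number of CG genes of 3L and 3R per 0.1 of log2 change, trisomic over normal, in females and in males, with genes under 2 CPM in both female groups stacked in their own colour and lines at 0.67-fold, 1-fold and 1.5-fold. The other genes peak between -0.6 and -0.5 in females and between -0.7 and -0.6 in males, next to the 0.67-fold line on this scale (between -0.4 and -0.3 in both sexes after centring), and 6 of them in females and 10 in males lie beyond the right edge.

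The CG genes of 3L and 3R resembled the CG genes of 2R, the other arm of chromosome 2, more than those of the trisomic arm. Medians over the 599 CG genes of 2R were -0.27 in females and -0.40 in males, and over the 646 CG genes of 2L 0.14 and -0.00. The 2L genes thus stood 0.38 higher in females and 0.40 higher in males than those of 3L and 3R. The 410 CG genes of the X had medians of -0.04 and -0.01. On chromosome 3 itself, the 1401 genes that had a name in the annotation had medians of -0.13 and -0.25, less low than the CG genes.

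The medians of both sexes rested in part on genes with nearly no RNA in females. Under 2 CPM in both female groups had 129 of the 1371 genes (9.41%), against 38 of the 1401 named genes of the same arms (2.71%) and 357 of all 6308 (5.66%). This limit was chosen after the values had been seen. Genes under it reach the mean of 10 CPM only through the male groups, so their male values also decided that they were kept. That holds for all 357 genes as well. In males their median level was 17.2 CPM in trisomic larvae against 47.5 CPM in normal larvae, and their sum 3269 CPM against 8172 CPM. Their median change in males was -1.56 (0.34-fold), with quartiles of -1.74 and -1.31. By at least 1.5-fold, 118 of the 129 (91.5%) were lower, near the 89.6% among all 357 genes under this limit. Higher by that much was 1, CG31029, with 28.7 CPM in trisomic males against 16.1 CPM in normal males (0.80). A further 4 were above 0, namely CG4836 (0.27), CG31210 (0.38), CG31538 (0.08) and CG7886 (0.06). CG4836 was abundant, at 232 CPM in trisomic males against 192 CPM in normal males. In females the added 1 held the change of the 129 genes near 0, with a median of 0.07 and quartiles of 0.03 and 0.12. Most of them thus counted in the 1-fold class of females. With them the female median was -0.24, and without them -0.32. The female share nearest to 0.67-fold was 39.7% with them and 43.4% without.

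Male-limited genes that now have a name include several of the sperm-making cells. S-Lap1, S-Lap2, S-Lap3 and S-Lap4 encode leucyl aminopeptidases of sperm, t-Grip84 a testis form of a gamma-tubulin complex subunit, tHMG1 and tHMG2 HMG-box proteins of spermatids, and gdrd a protein that spermatids need to elongate. All 12 members of a list of testis and spermatid proteins were lower in trisomic males by at least 1.5-fold, with a median change of -1.45 and a range from -2.04 for t-Grip84 to -0.76 for S-Lap2. Being male-limited, these 12 also reached the mean of 10 CPM only through the male groups. The share to set beside them is that of the male-limited genes, 91.5% of the 129 and 89.6% over all genes. S-Lap4 had 121 CPM in trisomic males against 320 CPM in normal males, and at most 1.40 CPM in either female group. S-Lap1 had 163 CPM in trisomic males against 304 CPM in normal males (-0.90). t-Grip84 had 11.0 CPM in trisomic males against 48.2 CPM in normal males. All 4 S-Lap genes were therefore lower in trisomic males, though S-Lap1 and S-Lap2 less so than t-Grip84.

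A list of 16 testis markers, none of them among the CG genes, moved alike: 15 were lower by at least 1.5-fold in trisomic males, with a median change of -1.64, and their sum was 285 CPM in trisomic males against 838 CPM in normal males. In females the sum was 16.3 CPM in trisomic larvae and 13.8 CPM in normal larvae. In whole larvae, fewer cells of a type and less RNA per cell cannot be told apart. The male-limited CG genes of 2L were also low, with a median of -1.09, which is 0.47 higher than that of 3L and 3R.

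Without the male-limited genes, 1242 CG genes of 3L and 3R remained and the sexes drew level, with medians of -0.32 in females and -0.31 in males. Named genes of the same arms then had -0.16 and -0.22, CG genes of 2R -0.33 and -0.31, and CG genes of 2L 0.13 and 0.08. In males the genes lower by at least 1.5-fold then numbered 443 (35.7%, against 25.9% of the 5951 genes left), and in females 348 (28.0%, against 19.3%). Higher were 163 in males (13.1%, against 17.9%) and 124 in females (9.98%, against 16.2%).

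Gene by gene, the change in one sex went with that in the other. Over the 1242 genes, Pearson's r was 0.87 and Spearman's rho 0.84. With the male-limited genes added they were 0.74 and 0.64 over 1371. The points are genes, not independent replicates, and the 2 comparisons share no group. Of the 348 genes lower by at least 1.5-fold in females, 83.9% were so in males, where all genes, also without the male-limited ones, gave 83.1%. Of the 443 lower in males 65.9% were so in females, against 62.0% over all genes. Of the higher genes, 79.0% of those in females were also higher in males, against 81.0% over all genes, and 60.1% of those in males also higher in females, against 73.2%. Over all 1371 genes, 2 (0.146%, against 0.159% of all genes) were higher in females and lower in males by that much, Dred and the male-limited gdrd.

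**Figure D2:**
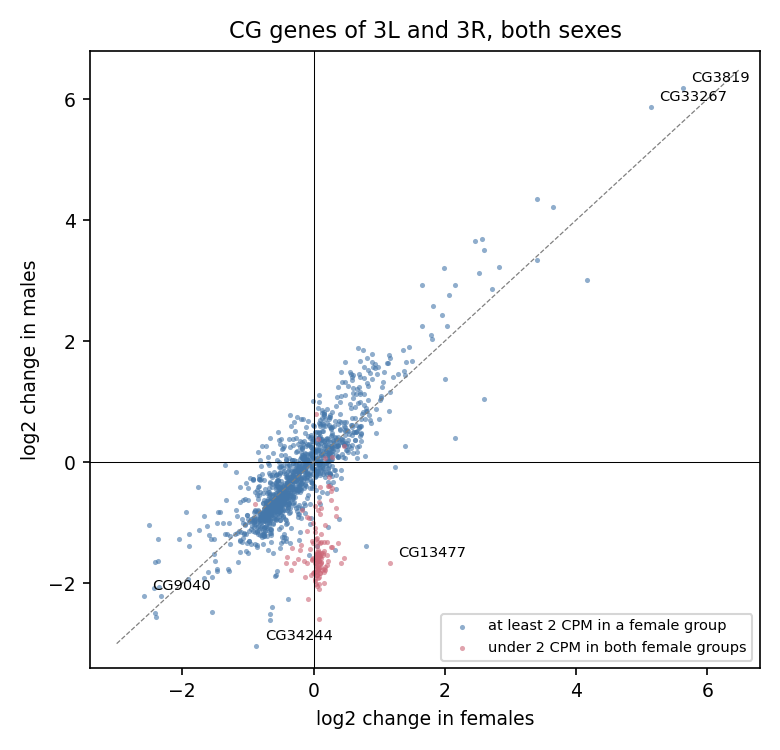
Change in males (vertical, log2) against change in females (horizontal, log2) for each CG gene of 3L and 3R, with the male-limited genes in their own colour. Most genes lie along the diagonal, with r of 0.87 over 1242 genes, and the male-limited genes form a separate band centred at -1.56 in males.

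Members that were higher in the trisomic larvae included a few with very large differences. CG3819 had 212 CPM in trisomic females against 3.32 CPM in normal females, and 199 CPM in trisomic males against 1.74 CPM in normal males (log2 changes of 5.63 and 6.19). CG33267 had 65.9 CPM in trisomic females against 0.897 CPM in normal females, and 91.8 CPM in trisomic males against 0.589 CPM in normal males (5.14 and 5.87). Both were near the low end of the scale in normal larvae of each sex, where the depth behind the means is unknown. CG15533, for which RefSeq lists the synonym aSMase, had 34.0 CPM in trisomic females against 1.80 CPM in normal females, and 30.1 CPM in trisomic males against 0.671 CPM in normal males (3.65 and 4.22). CG13705 had 23.4 CPM in trisomic females against 2.43 CPM in normal females, and 24.6 CPM in trisomic males against 1.73 CPM in normal males (2.83 and 3.23). CG32368, the non-coding RNA, had 31.6 CPM in trisomic females against 3.93 CPM in normal females, and 37.5 CPM in trisomic males against 4.29 CPM in normal males (2.73 and 2.86). In each of these genes the trisomic larvae of both sexes were high and the normal larvae of both sexes low.

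In males CG32071, CG11350 and CG32284 joined the 8 largest increases. CG11350 had 273 CPM in trisomic males against 20.8 CPM in normal males (3.65), and 248 CPM in trisomic females against 44.4 CPM in normal females (2.45). CG32284 had 123 CPM in trisomic males against 9.97 CPM in normal males (3.50), and 121 CPM in trisomic females against 19.0 CPM in normal females (2.60). In CG11350 and CG32284 the trisomic sexes were close and the normal males lower than the normal females. CG9757 and CG15597 also had a larger difference in males: CG9757 had 138 CPM in trisomic females against 34.0 CPM in normal females (1.98), and 223 CPM in trisomic males against 23.3 CPM in normal males (3.20), and CG15597 had changes of 1.65 and 2.93.

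The largest decreases in females were those of CG9040, CG16762, CG5246, CG13461, CG11854, CG11892, CG7912 and CG10562, with log2 changes from -2.58 to -2.37. CG9040 had 7.16 CPM in trisomic females against 47.8 CPM in normal females, and 6.71 CPM in trisomic males against 34.7 CPM in normal males (-2.58 and -2.21). CG5246 had 23.01 CPM in trisomic females against 128 CPM in normal females, and 28.7 CPM in trisomic males against 125 CPM in normal males (-2.43 and -2.09). CG11854 had 41.4 CPM in trisomic females against 224 CPM in normal females, and 37.4 CPM in trisomic males against 216 CPM in normal males (-2.41 and -2.50). In all 3 the normal sexes were both high. CG16762 and CG10562 differed between the sexes in size: CG16762 changed by -2.50 in females and by -1.04 in males, with 8.20 CPM in trisomic females against 51.2 CPM in normal females and 12.97 CPM in trisomic males against 27.8 CPM in normal males.

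In males the largest decrease was that of CG34244, with 5.10 CPM in trisomic males against 49.3 CPM in normal males (-3.04), and 20.8 CPM in trisomic females against 38.9 CPM in normal females (-0.87). CG13606 had changes of -2.62 in males and -0.66 in females, CG7924 of -2.51 and -0.66, and CG5391 of -2.39 and -0.63. CG7924 had 25.0 CPM in trisomic males against 146 CPM in normal males, and 72.5 CPM in trisomic females against 115.4 CPM in normal females. CG5391 had 54.2 CPM in trisomic males against 288 CPM in normal males, and 126 CPM in trisomic females against 195 CPM in normal females. These 4 genes are present in females too and so are not of the male-limited kind. CG13898 is, with 6.87 CPM in trisomic males against 46.6 CPM in normal males (-2.60), and 0.171 CPM in trisomic females against 0.101 CPM in normal females.

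Markers of larval tissues moved with these comparisons, and their part in the single-gene values was not tested. Of 9 glue genes of the salivary gland, 6 were lower by at least 1.5-fold in each sex and 2, ng1 and ng3, were higher, and the sum of the 9 was 5308 CPM in trisomic females against 16860 CPM in normal females, and 3978 CPM in trisomic males against 15502 CPM in normal males. Of 14 midgut genes, 7 in females and 10 in males were higher and 1, Jon65Aiii, was lower in each sex, with sums of 13862 CPM in trisomic females against 14270 CPM in normal females, and 14615 CPM in trisomic males against 9950 CPM in normal males. The 3 on 2L, Jon25Bi, Jon25Bii and Jon25Biii, were higher in both sexes. Without them the sums were 9643 CPM in trisomic females against 12571 CPM in normal females. In males they were then 9851 CPM in trisomic larvae against 8897 CPM in normal larvae. Of 10 muscle genes, 5 in females and 8 in males were higher, with sums of 7366 CPM in trisomic females against 4815 CPM in normal females, and 8852 CPM in trisomic males against 3743 CPM in normal males. The 7 fat body genes summed to 73625 CPM in trisomic females against 63133 CPM in normal females, and to 56075 CPM in trisomic males against 49201 CPM in normal males. Without the 2 of them that lie on 2L, the sums were 45877 CPM in trisomic females against 45210 CPM in normal females, and 29691 CPM in trisomic males against 32351 CPM in normal males. Of 7 nervous system genes 6 were in the table, nSyb not being among them, and their sums were 103 CPM in trisomic females against 73.5 CPM in normal females, and 93.7 CPM in trisomic males against 71.2 CPM in normal males. Without the 2L gene Syt1 they were 21.2 CPM in trisomic females against 24.4 CPM in normal females, and 19.7 CPM in trisomic males against 29.2 CPM in normal males.

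The change went with the length of the coding sequence. Coding length was taken from Ensembl gene models for 1361 of the 1371 genes (99.3%). Among the 1242 genes without the male-limited ones, the 101 with under 400 coding bases had medians of -0.56 in females and -0.64 in males, and 48.5% and 52.5% of them were lower by at least 1.5-fold, where all genes of that length gave 42.5% and 44.8%. The 143 genes of 400 to under 700 bases had -0.57 and -0.53, and the 183 of 700 to under 1000 bases -0.47 and -0.51. The 311 genes of 1000 to under 1500 bases had -0.29 and -0.26, and the 280 of 1500 to under 2500 bases -0.28 and -0.26. At 2500 bases or more, 216 genes had 0.12 and -0.03, with 9.26% lower in females and 17.6% in males, against 5.48% and 13.9% of all genes of that length. Short genes thus stood lowest and the longest near or above 0.

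The same order was seen within each range of mean level. At 10 to 20 CPM the median in females was -0.52 for genes under 700 coding bases, -0.36 for 700 to under 1500 and -0.13 for 1500 or more. At 20 to 50 CPM these medians were -0.57, -0.37 and -0.10, and at 50 CPM or more -0.63, -0.47 and -0.14. In males they were -0.63, -0.40 and -0.14 at 10 to 20 CPM, -0.53, -0.38 and -0.18 at 20 to 50 CPM, and -0.29, -0.16 and -0.07 at 50 CPM or more. The step in males was thus smallest among the most abundant genes.

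Named genes and CG genes of 3L and 3R were closer at matched coding length in most classes. Under 400 coding bases the CG genes had -0.56 in females against -0.60 in named genes, and at 1000 to under 1500 bases -0.29 against -0.27. In males the CG genes stood above the named genes in each class under 1500 bases, by 0.01 to 0.12. The 0.12, at 400 to under 700 bases, is wider than the 0.08 by which male CG genes stood below over all lengths. At 1500 to under 2500 bases the CG genes had -0.28 in females and -0.26 in males, against -0.01 and -0.03 in named genes, the widest gap of the 6 classes. The CG genes were shorter as a set, with a median of 1272 coding bases against 1608 in named genes. The CG genes of 2L followed the same slope at a higher level, with medians in females of -0.18 under 400 bases and 0.59 at 2500 or more, and they exceeded those of 3L and 3R by 0.37 to 0.58 in females and by 0.34 to 0.54 in males in each class. As the slope is shared by the trisomic and the unlinked arms, it is not particular to genes of 3L and 3R. Its cause was not tested.

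**Figure D3:**
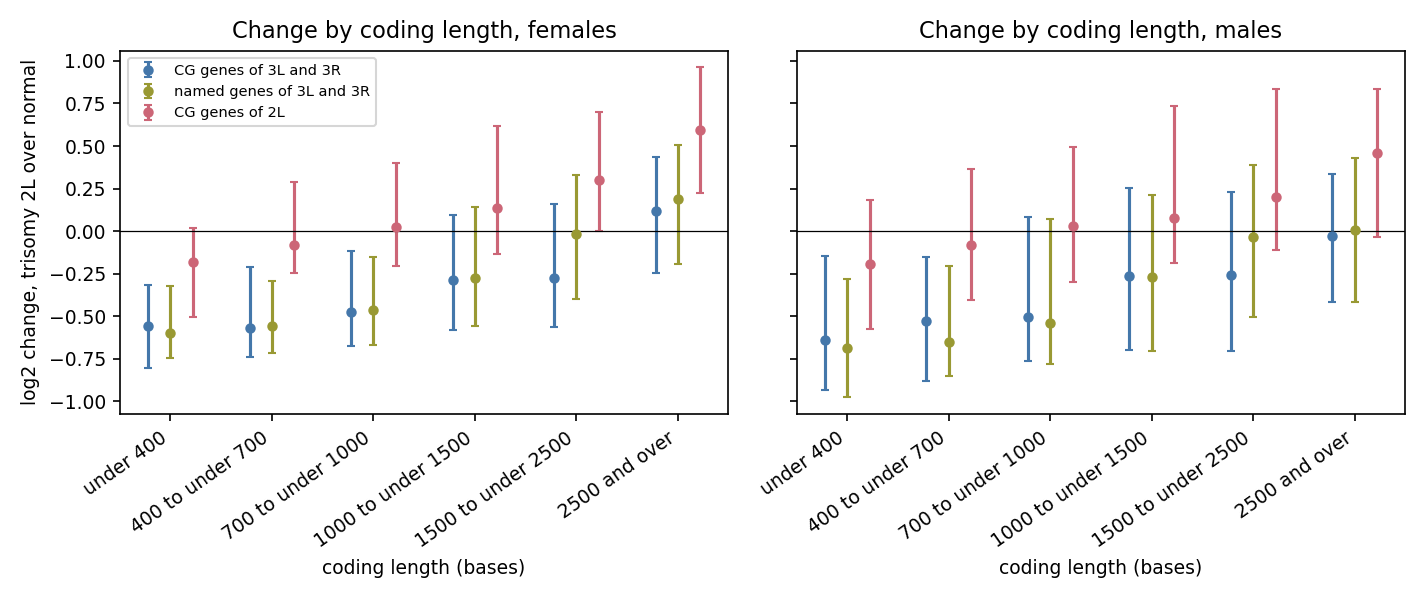
Median log2 change by class of coding length, in females and in males, for CG genes of 3L and 3R, named genes of 3L and 3R and CG genes of 2L, without male-limited genes, with bars from the lower to the upper quartile. All 3 sets climb with length, from -0.56 to 0.12 in females for the CG genes of 3L and 3R, and the 2L genes stand above them in every class.

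Along the chromosome the decrease was broad. In windows of 50 neighbouring CG genes, the last of each arm being shorter, all 13 windows of 3L had a median below 0 in both sexes, from -0.51 to -0.02 in females and from -0.60 to -0.11 in males. On 3R, 14 of 15 windows were below 0 in females and all 15 in males. Set against the median of 2R, 3L and 3R in place of 0, 8 windows of 3L and 7 of 3R were lower in females, and 11 and 10 in males. The exception in females was the window from CG31342 to CG6904, at 0.01, and the lowest of 3R was that from CG13606 to CG11859, at -0.50 in females and -0.66 in males. All these window medians include the male-limited genes. Without them every window was still below 0 in males, but fewer lay below -0.31, the male median of 2R, 3L and 3R. The window from CG8564 to CG5288, for one, went from -0.36 to -0.10 in males. Single neighbours were barely alike: over 735 pairs of adjacent CG genes with no other measured gene between them, r was 0.16 in females and in males, as a description across pairs that share genes.

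A few stretches of at least 4 neighbouring CG genes moved one way by at least 1.5-fold throughout. No count of such stretches over all genes stands beside these, so they are a description only. Single lower genes were also more common than higher ones, at 25.5% against 9.12% in females and 40.9% against 12.0% in males. The 1 such stretch that was higher in females lay on 3R and held CG6296, CG6295, CG6283, CG6277 and CG6271. CG6283 had 368 CPM in trisomic females against 33.8 CPM in normal females, and 219 CPM in trisomic males against 20.7 CPM in normal males (3.41 and 3.34). CG6296 had 199 CPM in trisomic females against 17.9 CPM in normal females, and 249 CPM in trisomic males against 11.3 CPM in normal males (3.41 and 4.34). CG6271 had 52.6 CPM in trisomic females against 1.99 CPM in normal females, and 18.9 CPM in trisomic males against 1.47 CPM in normal males (4.16 and 3.01). All 3 were high in both trisomic sexes. CG6277 was so only in females by the 1.5-fold count, with 77.0 CPM in trisomic females against 16.5 CPM in normal females (2.16), and 17.3 CPM in trisomic males against 12.9 CPM in normal males (0.39), and the difference between the sexes was not tested. Neighbours in such a stretch may be near-identical copies whose reads the counting cannot separate, which makes the values of single genes uncertain.

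In females 3 stretches with 13 genes were lower. The lowest held CG10513, CG10514, CG11892 and CG11893, with changes from -1.91 to -2.40 in females and from -1.93 to -2.56 in males. CG11892 had 58.7 CPM in trisomic females against 314 CPM in normal females, and 47.5 CPM in trisomic males against 285 CPM in normal males. CG10513 had 32.7 CPM in trisomic females against 167 CPM in normal females, and 27.2 CPM in trisomic males against 130 CPM in normal males. A second held the short genes CG34279, CG33333, CG42834 and CG14332, with changes from -1.29 to -1.61 in females and from -1.77 to -1.90 in males. The last held shams, CG33095, CG33096, TTLL5 and CG31510, at -0.71 to -0.83 in females and -0.97 to -1.22 in males.

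In males 8 stretches with 34 genes were lower, the same 3 among them, and none was higher. One of the other 5 held saturn, CG7768, CG7924, CG34244 and CG7906 on 3L, at -1.31 to -3.04 in males. It mixed kinds, since saturn and CG7768 had under 1 CPM in both female groups, while CG7906 had 71.6 CPM in trisomic females against 94.6 CPM in normal females, and 24.7 CPM in trisomic males against 122 CPM in normal males. Another held CG7342, CG17751, CG17752 and CG16727 on 3R, at -1.27 to -1.52 in males. In females the last 3 of these were lower as well, at -1.52 to -1.90, and CG7342 had -0.50.

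**Figure D4:**
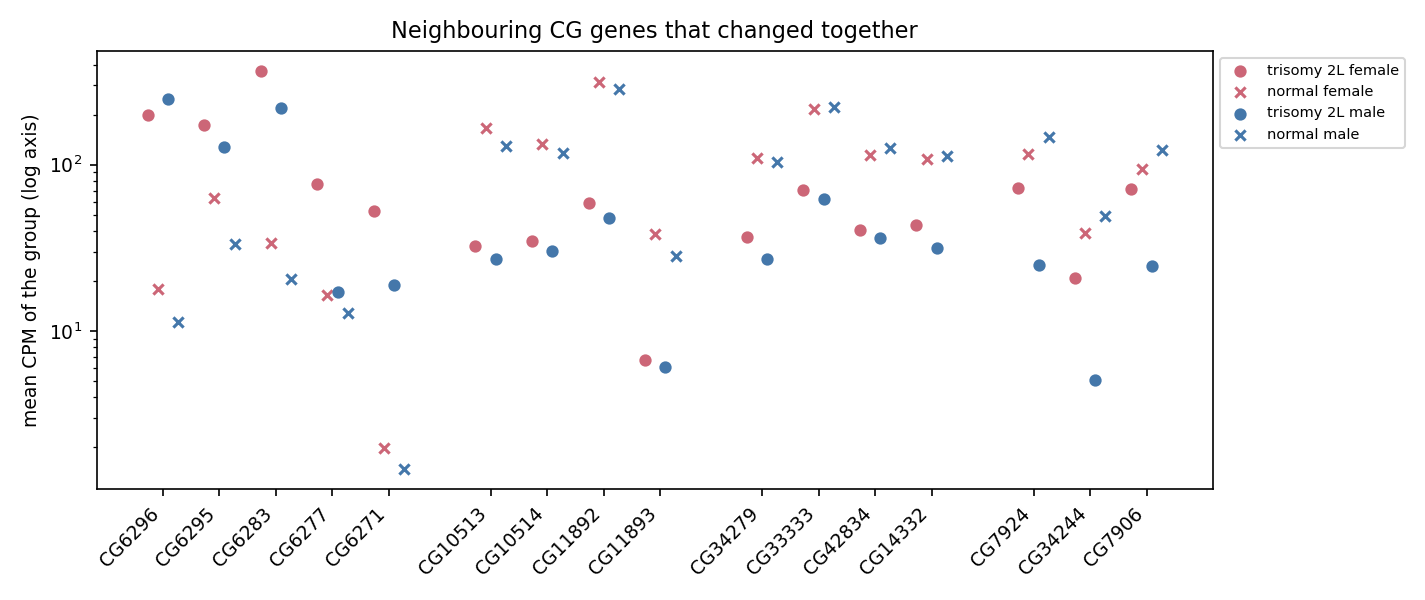
Mean CPM of each group on a log axis for 4 stretches of neighbouring CG genes, with circles for trisomic and crosses for normal larvae, the last stretch without its male-limited genes. In the stretch with CG6283 the trisomic values stand above the normal ones, and in the other 3 below them in both sexes.

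The genes that now have a name could be read by function. Lists of current names, 12 in number, were drawn up after the names had been seen and hold 148 of the 1371 genes. Among 5 genes listed as zinc transporters by their names, 4 were lower by at least 1.5-fold in both sexes, and the medians were -1.13 in females and -1.18 in males. The metal that each protein carries, and in which direction, was not tested. Zip71B, of the ZIP family, had 27.5 CPM in trisomic females against 64.2 CPM in normal females, and 27.1 CPM in trisomic males against 62.6 CPM in normal males (-1.19 and -1.18). Zip99C, of the same family, had 48.8 CPM in trisomic females against 108 CPM in normal females, and 44.8 CPM in trisomic males against 127 CPM in normal males (-1.13 and -1.48). Zip88E had -1.27 and -1.35, and ZnT77C, of the ZnT family that moves zinc out of the cytosol, -0.79 and -1.09. ZnT86D stood apart at -0.05 and 0.13. The 4 were lower by that much after centring too.

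Over all genes, the shares to set beside the counts of these lists are 18.3% lower and 15.3% higher in females, and 29.5% and 17.0% in males, or 7.51% and 22.3%, and 14.5% and 27.6%, after centring. For the testis and spermatid list the share lower in males is that of male-limited genes, 89.6%. All 6 prefoldin and co-chaperone genes were below 0 in both sexes, 4 in females and 5 in males by at least 1.5-fold, with medians of -0.67 and -0.85. Prefoldin hands unfolded actin and tubulin to a folding machine, and Pfdn6, a subunit of it, had 16.9 CPM in trisomic females against 29.3 CPM in normal females, and 19.1 CPM in trisomic males against 41.6 CPM in normal males (-0.76 and -1.08). p23, a partner of Hsp90, had 138 CPM in trisomic females against 232 CPM in normal females, and 139 CPM in trisomic males against 274 CPM in normal males (-0.74 and -0.97). After centring none of the 6 passed 1.5-fold in females and 2 did in males. The list is of short genes, with a median of 459 coding bases, and the 143 CG genes of 3L and 3R in the class of 400 to under 700 bases had medians of -0.57 and -0.53.

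All 12 genes for the assembly of N-glycans and GPI anchors were below 0 in females and 11 in males, with medians of -0.54 and -0.58, and 6 in each sex were lower by at least 1.5-fold. Gmppb, which makes the mannose donor GDP-mannose, had 30.1 CPM in trisomic females against 55.3 CPM in normal females, and 27.3 CPM in trisomic males against 58.1 CPM in normal males (-0.85 and -1.06). Alg2, Alg9 and Alg11, mannosyltransferases that build the glycan on its lipid carrier, had -0.63, -0.64 and -0.64 in females and -0.63, -0.69 and -0.55 in males. Alg1 was the exception in males, at 0.12, with -0.44 in females. After centring 2 of the 12 were lower in each sex, and the medians were -0.34 and -0.27.

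Of 11 ribosome biogenesis genes, 4 in females and 6 in males were lower by at least 1.5-fold and none was higher, with medians of -0.48 and -0.61. After centring the split turned, with 0 lower and 1 higher in females, and 1 lower and 2 higher in males. Sbds, which helps to release a factor from the new large subunit, had 9.16 CPM in trisomic females against 15.8 CPM in normal females, and 14.0 CPM in trisomic males against 30.1 CPM in normal males (-0.73 and -1.06), while Non2 had 0.42 and 0.39. Of 16 genes of endosomal sorting and vesicle traffic, 4 in females and 7 in males were lower and none was higher, with medians of -0.38 and -0.54, and after centring 2 were lower in each sex, with medians of -0.18 and -0.23. The lowest was Vps11, part of the complexes that tether endosomes and lysosomes, with 16.3 CPM in trisomic females against 36.2 CPM in normal females, and 15.5 CPM in trisomic males against 35.6 CPM in normal males (-1.11 and -1.15).

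Of 14 genes of the respiratory chain and ATP synthase, 4 (28.6%) were higher by at least 1.5-fold in both sexes and none was lower. After centring 4 were again higher and none lower in each sex. Over all genes 22.3% in females and 27.6% in males were then higher, so the male share was near that of all genes. UQCR-C1, a core subunit of complex III, had 122 CPM in trisomic females against 55.0 CPM in normal females, and 151 CPM in trisomic males against 47.6 CPM in normal males (1.14 and 1.65). ND-39, a subunit of complex I, had 63.8 CPM in trisomic females against 27.9 CPM in normal females, and 84.2 CPM in trisomic males against 24.9 CPM in normal males (1.16 and 1.72). UQCR-C2 and Cyt-c1, also of complex III, had 0.90 and 0.60 in females and 1.57 and 1.45 in males. The other 10 lay between -0.45 and 0.09 in both sexes, so that the group's medians, -0.20 and 0.01 (0.00 and 0.32 after centring), describe neither set. The sets also differ in coding length, from 921 to 1410 bases in the 4 higher genes and from 204 to 795 bases in the other 10. The part of length in the split was not tested. Among those 10 was ATPsynC, the abundant ring subunit of the ATP synthase, with 526 CPM in trisomic females against 582 CPM in normal females, and 564 CPM in trisomic males against 538 CPM in normal males.

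Of 15 enzymes of the mitochondrial matrix, 4 in females and 5 in males were higher by at least 1.5-fold, with medians of 0.13 and 0.28. After centring 4 in females and 8 in males were higher, with medians of 0.33 and 0.59. Pdhb, a subunit of pyruvate dehydrogenase, had 25.3 CPM in trisomic females against 11.5 CPM in normal females, and 33.7 CPM in trisomic males against 11.4 CPM in normal males (1.07 and 1.49). Mdh2, the malate dehydrogenase of the citric acid cycle, had 161 CPM in trisomic females against 106 CPM in normal females, and 170 CPM in trisomic males against 72.3 CPM in normal males (0.60 and 1.22). SCOT, which readies ketone bodies for oxidation, had 0.76 and 1.39, and Etfb, an electron carrier of fatty acid oxidation, 0.59 and 1.41. In males 2 were lower, mAcon2 at -1.54 and P5CDh2 at -1.08, and both are far higher in normal males than in normal females, at 53.4 CPM against 0.110 CPM and at 29.5 CPM against 2.38 CPM. The muscle marker sums given above moved in the same direction as the higher mitochondrial genes, and their part in them was not tested.

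BNIP3, a receptor that marks mitochondria for removal, was the lowest of 14 genes of autophagy and the lysosome, with 202 CPM in trisomic females against 449 CPM in normal females, and 143 CPM in trisomic males against 449 CPM in normal males (-1.15 and -1.64). In this group 3 in females and 5 in males were lower by at least 1.5-fold and 2 and 0 higher, or 2 and 2 lower and 2 and 1 higher after centring. Its medians of -0.17 and -0.15 turned to 0.02 and 0.16 after centring. Of 19 ubiquitin and UFM1 enzymes, 4 in females and 8 in males were lower and 2 and 1 higher, and after centring 1 and 4 were lower and 3 and 4 higher. Usp5, which takes apart free ubiquitin chains, had 26.4 CPM in trisomic females against 12.6 CPM in normal females, and 31.2 CPM in trisomic males against 14.7 CPM in normal males (1.01 and 1.03). The female median of this group, -0.04, turned to 0.16 after centring and to 0.06 after rescaling to totals of 1 value per gene.

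Of 15 splicing and 3' end processing genes, 3 were lower and 1 was higher in each sex, with medians of 0.12 and 0.06, and after centring 2 in females and 3 in males were lower and 2 and 3 higher. Sf3b6 and Sf3b5, small subunits of the SF3b complex with 363 and 255 coding bases, were low. Sf3b6 had 40.8 CPM in trisomic females against 69.3 CPM in normal females, and 36.3 CPM in trisomic males against 86.5 CPM in normal males (-0.75 and -1.23), and Sf3b5 had -0.81 and -1.01. Sf3b3, a large subunit with 3681 coding bases, had 80.6 CPM in trisomic females against 71.1 CPM in normal females, and 77.2 CPM in trisomic males against 66.2 CPM in normal males (0.18 and 0.22). Sf3a1 was the higher gene, at 0.81 and 0.85. Of 9 UDP-glycosyltransferases and glutathione transferases, which tag toxins and metabolites for removal, 3 in females and 4 in males were lower and 1 and 0 higher, with medians of -0.47 and -0.46, and after centring 2 and 3 were lower and 1 and 0 higher. Ugt37A2 differed between the sexes, with 15.9 CPM in trisomic females against 42.1 CPM in normal females (-1.35), and 23.6 CPM in trisomic males against 24.4 CPM in normal males (-0.05).

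**Figure D5:**
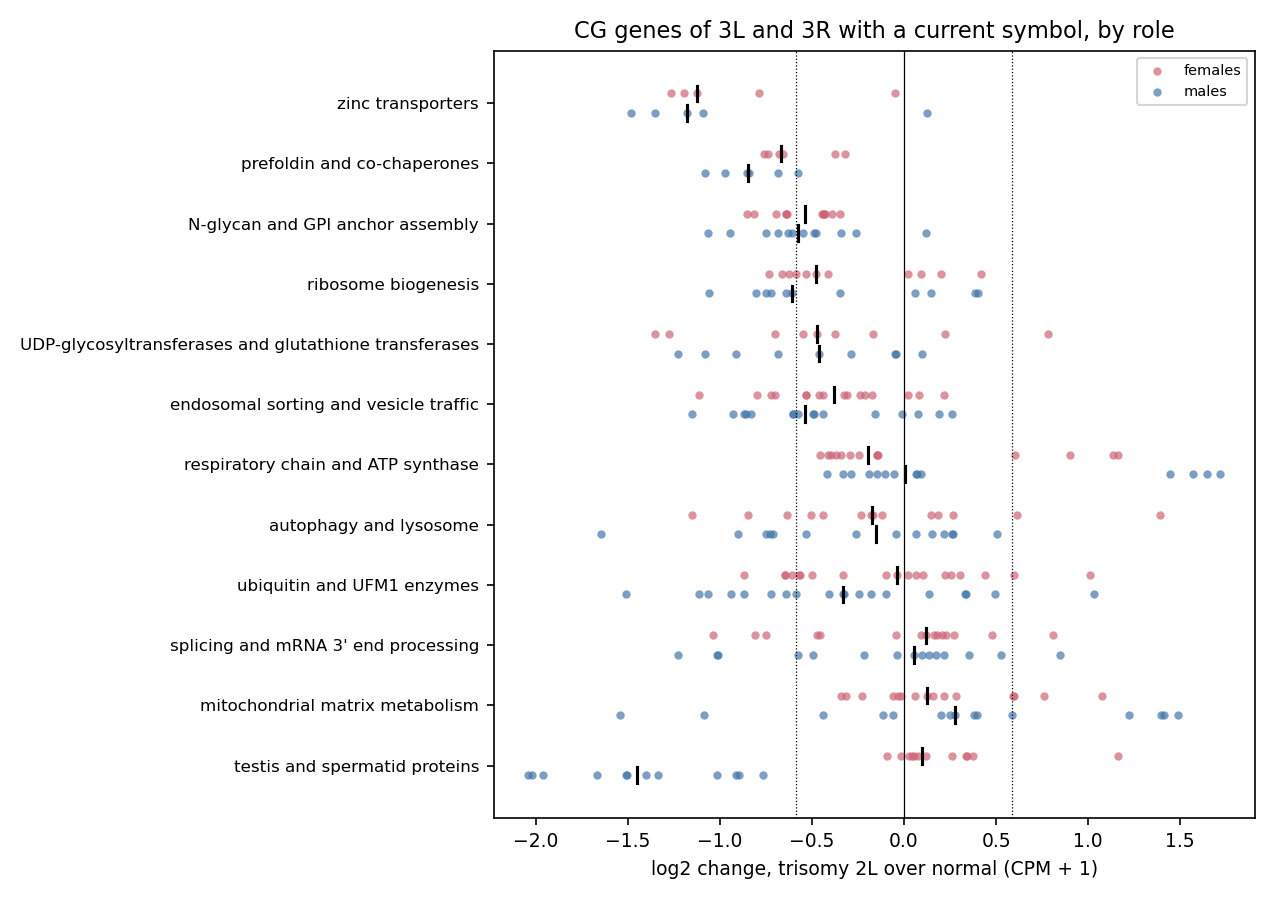
Log2 change of each gene in the 12 lists of current names, in females and in males, with the median of each list. The list of zinc transporters lies lowest in females, at a median of -1.13, and 4 genes of the respiratory chain stand above the other 10. The testis list lies at -1.45 in males and 0.10 in females. In females its genes are under 2 CPM, where the added 1 understates any change.

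The 8 most abundant genes had changes between -1.12 and 0.60. mag, a lipase, had 919 CPM in trisomic females against 1102 CPM in normal females, and 1154 CPM in trisomic males against 876 CPM in normal males (-0.26 and 0.40). CG18180 had 973 CPM in trisomic females against 911 CPM in normal females, and 916 CPM in trisomic males against 605 CPM in normal males (0.09 and 0.60). CG7298 had 382 CPM in trisomic females against 628 CPM in normal females, and 591 CPM in trisomic males against 489 CPM in normal males (-0.72 and 0.27). For mag, CG7298 and, by small amounts, ATPsynC the direction differed between the sexes, and CG32249 was lower in both, at -1.12 and -0.65. fabp, a fatty acid binding protein, had 587 CPM in trisomic females against 890 CPM in normal females, and 540 CPM in trisomic males against 606 CPM in normal males (-0.60 and -0.17). Whether the response of single genes differs between the sexes was not tested.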

How the data were processed

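RNA of larvae of the third instar, isolated with TRIZOL, was made into libraries with a TruSeq kit, per the labels' protocols. TopHat, HTSeq and the build dm3 stand in the submitters' processing notes, with no version; neither annotation nor strand setting is given there. The CPM in the deposited tables are means that the authors took over the repeats of a group, per the file headers, and a column adds up to 1000000 over both tables.

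Models of a transcript (22738) were averaged to give each gene 1 value, and log2 changes were computed from the deposited CPM with a pseudocount of 1. The coordinates of the files were not used with the reference, which is of another build: gene order, coding length and current names came from it, by name. Coding length is the longest coding sequence of a gene. Of the 1371 genes, 457 have several models, 489 overlap a gene on the other strand and 156 one on the same strand, so their reads may be shared, and 9 share a current gene with another.

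Members, lists and thresholds were chosen with earlier results of these data known. Genes named in the text are the 8 largest increases and decreases per sex, the 8 most abundant, the 5 extremes of the sex differences, the genes at the limit of 10 CPM, the stretches of neighbours and the extremes of each list; others were chosen after their values were seen. The values of 1 gene that the rule names are not reported here. Planned classes from product texts, protein features and promoter letters were not used here, and lists of current names took their place. No test was run, as there is 1 value per group. The steps were tested on simulated data. Alternatives were other pseudocounts, minimum means, thresholds, scalings, values per gene, single arms, and leaving out the male-limited genes, the last chosen after seeing the data. Scripts ran in Python 3.11.15 with scipy 1.17.1, numpy 2.4.6 and pandas 2.3.3, and plots were drawn with matplotlib 3.10.9.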

Additional observations from a re-analysis of the deposited data

Results flagged for a closer look

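In 2 of the 1371 genes (0.146%, against 0.159% of all genes) the 1.5-fold count went up in females and down in males, and the difference between the sexes was not tested. gdrd (CG13477) changed by 1.16 in females, with 1.41 CPM in trisomic females against 0.0736 CPM in normal females, and by -1.67 in males, with 8.75 CPM in trisomic males against 29.98 CPM in normal males. Dred (CG9279) changed by 0.79 in females, with 3.17 CPM in trisomic females against 1.41 CPM in normal females, and by -1.39 in males, with 29.6 CPM in trisomic males against 79.0 CPM in normal males. In females both genes are at a few CPM at most, where the depth behind the means is unknown.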

How the results depend on the processing

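In 162 values of 12 results under 14 alternatives, 146 stayed within 0.1 (log2) or within 1.5 times of those reported, 16 did not, and no median changed sign. After centring on the 2R, 3L and 3R median, the medians were -0.04 in females and -0.09 in males, the lower shares 11.5% and 22.6%, the higher shares 13.2% and 20.1%, and the shares lower and higher in both sexes 7.73% and 11.5%, so that more genes were higher than lower in females and in both sexes, the reverse of the deposited scale. At a 2-fold threshold the lower shares were 5.32% in females and 17.9% in males, the higher shares 3.50% and 6.64%, and those in both sexes 3.87% lower and 3.14% higher. With no minimum mean the female median was -0.06 and 13.6% were lower in both sexes, and with a pseudocount of 5 this share was 13.5%. By construction, a stricter threshold and a larger pseudocount give smaller counts; the cause of the other shifts was not tested.

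No paired analysis was possible because only means over the repeats were analysed, and for the same reason leaving out repeats was not run. The unknown depth limits all values of a few CPM most.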

Other observations

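Male-limited genes of 3L and 3R differed in gene structure from the others. Of the male-limited genes, 37.8% had no intron in the coding sequence, against 12.0% of the other CG genes of 3L and 3R. Over all genes the shares were 43.3% of the male-limited and 11.8% of the others, so this is not particular to 3L and 3R.

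The largest male excess in normal larvae was that of S-Lap3, S-Lap4, S-Lap1, CG33340 and CG9920, with log2 values of male over female of 7.39, 7.33, 7.24, 6.99 and 6.85. The largest female excess was far smaller, at -1.09 for CG9119, -1.05 for CG11350, -0.96 for Nepl18, and -0.95 for CG8774 and CG31198. CG9119 had 22.3 CPM in trisomic females against 13.6 CPM in normal females, and 24.4 CPM in trisomic males against 5.89 CPM in normal males. CG31198 had 372 CPM in trisomic females against 280 CPM in normal females, and 408 CPM in trisomic males against 145 CPM in normal males. In both genes the trisomic sexes were closer to each other than the normal sexes. CG42500 had the opposite order of size, with 192 CPM in trisomic females against 650 CPM in normal females (-1.76), and 310 CPM in trisomic males against 411 CPM in normal males (-0.41).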
